A study of Mus musculus with 6 samples.

Results

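The genes described here encode the proteasome, and they were chosen by symbol: every row of the gene table whose symbol begins with Psm, a letter from a to g and a digit, unless its description names a pseudogene. The rule took 50 of 24532 genes and left out 0 pseudogene rows. Of the 50, 31 encode constitutive subunits, 5 encode the immunoproteasome and PA28 proteins (Psmb8, Psmb9, Psmb10, Psme1 and Psme2), and 14 are assembly factors, other activators, an inhibitor, tissue-restricted forms or genes that share the symbol only. Psmc3ip, whose product acts in meiotic recombination, and Psme2b, a copy of Psme2 whose estimate is uncertain because reads may be split between near-identical copies, match the rule without being established subunits. Psmb11, the thymus-restricted catalytic subunit, had 0 estimated counts in all 6 libraries, so 49 members were tested.

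The proteasome is the barrel-shaped protease that degrades ubiquitin-tagged proteins. Its core, the 20S particle, stacks rings of alpha and beta subunits, and the catalytic sites lie inside, on Psmb5 (chymotrypsin-like), Psmb6 (caspase-like) and Psmb7 (trypsin-like). Under interferon-gamma, and in immune cells at rest, Psmb8, Psmb9 and Psmb10 replace these subunits and favour peptides for MHC class I, while the PA28 cap of Psme1 and Psme2 opens the core. In the DDC-fed liver, a standard model of ubiquitin-rich hepatocyte inclusions called Mallory-Denk bodies, protein disposal has long been a subject of study.

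All 6 animals were wild-type C57BL/6 mice on a diet with 0.1% DDC (3,5-diethoxycarbonyl-1,4-dihydrocollidine), which inhibits heme synthesis and injures bile ducts, for 4 weeks. In the last 2 of those weeks 3 mice received rhCYGB, recombinant human cytoglobin, at 2 mg/kg and 3 received normal saline, on 2 days a week, and liver was collected 2 days after the last rhCYGB dose. Both groups carry the injury, and no mice on a normal diet were analysed here. The titles give each animal its own number. The sources used here give neither age nor sex.

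Libraries held 58422095 to 72431373 estimated counts. Levels are given as CPM, the estimated counts relative to library size after scaling by TMM factors, which set the bulk of genes level between libraries. The first rhCYGB library stood apart from the other two of its group. For 39 of the 49 tested members it lay within the range of the 3 vehicle libraries, against 58.1% of all genes tested. The second and the third rhCYGB libraries lay above that range for 36 and 34 members, against 37.5% and 37.4% of all genes. The vehicle range was itself wide. Summed over the 50 members, CPM were 2957, 4122 and 4028 in vehicle mice against 3656, 6391 and 7260 in rhCYGB mice. By this sum the first vehicle library was the lowest, and the first rhCYGB library lay between it and the other vehicle libraries. No transcript in the table reports on the injected protein, so the treatment label of the first rhCYGB library could not be checked from the data. Transcript length was another axis of difference. The slope of a library's log2 CPM deviation on log2 length was 0.40, -0.016 and 0.057 for the vehicle mice and 0.24, -0.35 and -0.33 for the rhCYGB mice. The median member is 1287 bases long against 2109 for all genes in the table. All 10 hepatocyte markers listed were measured, led by Alb, Apoa1 and Ttr, and summed to 60021, 104006 and 91195 CPM in vehicle mice against 92229, 200307 and 211376 CPM in rhCYGB mice. These markers were thus highest in the same 2 rhCYGB libraries as most proteasome genes. Markers of bile duct cells (Spp1, Krt19, Epcam, Krt7 and Sox9) summed to 948 to 1052 CPM in vehicle mice against 588, 372 and 195 CPM in rhCYGB mice. That sum is mostly Spp1 (log2 fold change -1.53). Epcam and Sox9 were negative too (-0.64 and -0.83), while the keratins Krt19 and Krt7 were positive (0.62 and 0.41). The 4 stellate cell markers summed to 175 to 217 CPM against 126, 132 and 49.8 CPM, led by Col1a1 (-1.11), with Pdgfrb and Lrat also negative and Des positive (0.24). The 4 endothelial markers summed to 65.6 to 87.7 CPM against 93.4, 88.6 and 49.5 CPM. The part of these cell types in the results below was not tested. In whole liver, fewer cells of a type and less RNA per cell cannot be told apart.

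Promoter sequence is shown for 4 members because they bracket the results: the standard and immuno forms of the chymotrypsin-like site, Psmb5 and Psmb8, and the alpha ring genes with the highest and the lowest fold change, Psma7 and Psma1. Each line is the 250 bases before the start in the gene's direction, from RefSeq on build GRCm38.p6, and capitals mark matches to the motifs described next. The windows are chr14:54617996-54618245 (minus strand) for Psmb5, chr17:34197945-34198194 (plus strand) for Psmb8, chr2:180042465-180042714 (minus strand) for Psma7 and chr7:114276117-114276366 (minus strand) for Psma1.
Psmb5: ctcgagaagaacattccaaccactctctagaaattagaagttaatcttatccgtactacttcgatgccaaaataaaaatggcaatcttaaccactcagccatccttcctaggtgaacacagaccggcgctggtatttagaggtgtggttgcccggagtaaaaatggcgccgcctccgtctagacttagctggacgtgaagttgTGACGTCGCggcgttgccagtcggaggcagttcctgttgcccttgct
Psmb8: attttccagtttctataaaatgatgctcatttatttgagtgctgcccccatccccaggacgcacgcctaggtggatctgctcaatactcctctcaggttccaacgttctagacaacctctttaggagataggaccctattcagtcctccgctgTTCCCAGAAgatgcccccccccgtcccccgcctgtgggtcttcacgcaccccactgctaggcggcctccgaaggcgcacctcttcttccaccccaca
Psma7: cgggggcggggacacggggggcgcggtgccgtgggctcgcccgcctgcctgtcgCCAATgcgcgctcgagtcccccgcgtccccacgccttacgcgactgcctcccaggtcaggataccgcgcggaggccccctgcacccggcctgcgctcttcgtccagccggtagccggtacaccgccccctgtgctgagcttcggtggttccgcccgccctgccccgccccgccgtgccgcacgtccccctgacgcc
Psma1: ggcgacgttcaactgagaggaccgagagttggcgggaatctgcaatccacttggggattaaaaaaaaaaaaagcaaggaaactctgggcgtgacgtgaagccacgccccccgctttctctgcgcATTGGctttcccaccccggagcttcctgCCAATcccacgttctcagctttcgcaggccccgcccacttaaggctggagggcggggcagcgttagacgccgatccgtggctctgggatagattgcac

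A promoter window was found for 42 of the 50 members, and 4 motifs were searched on both strands. The core of the antioxidant response element, TGACNNNGC, which binds NRF1 (Nfe2l1) and NRF2 (Nfe2l2), was found before 5 of the 42 (Psmb5, Psmb6, Psmc6, Psmd9 and Psmd12), or 11.9%, against 11.5% of 27025 genes. In Psmb5 it begins 47 bases before the start. An interferon regulatory factor element, GAAANNGAAA, was found before 3 members (Psmb3, Psmd4 and Psmd9), or 7.14%, against 3.46% of all genes. The STAT-binding GAS element, TTCNNNGAA, was found before 2 (Psmb8 and Psmg1), or 4.76%, against 8.13% of all genes, and in Psmb8 it begins 97 bases before the start. CCAAT boxes were found before 15 members, or 35.7%, against 37.5% of all genes, in Psma7 as well as in Psma1. These matches describe letters in these windows. Their relation to the fold changes was not tested.

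The question put to the expression data was whether proteasome genes differ between rhCYGB and vehicle livers, and whether immuno and constitutive subunits differ alike. On TMM-scaled counts most members had higher mean values with rhCYGB, on log2(FPKM + 1) 20 of 49 did, and none passed the test. By edgeR with Benjamini-Hochberg adjustment over 14415 genes, 0 of 49 members and 0% of all genes had an adjusted p under 0.05, and the smallest adjusted p was 0.523 among members. At an unadjusted p under 0.05 there were 4 members, Psmd9, Psma7, Psmb3 and Psmb7, all higher, while 6.06% of all genes were higher and 2.06% lower at that p. Positive log2 fold changes, taken as rhCYGB over vehicle on TMM-scaled counts, were found for 40 of 49 members, against 46.8% of all genes. In 0 of 49 did the groups separate without overlap in CPM, while 6.02% of all genes did so with higher and 7.38% with lower values.

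Proteasome genes together took 0.428%, 0.439% and 0.474% of all estimated counts in the vehicle libraries and 0.430%, 0.476% and 0.458% in the rhCYGB libraries, so their unscaled share overlapped between groups. CPM also carry the TMM factors, which were 1.45, 1.07 and 1.18 for the vehicle mice and 1.18, 0.744 and 0.630 for the rhCYGB mice. On log2(FPKM + 1), where FPKM is the deposited value scaled by transcript length and sequencing depth, the median of all genes was -0.34, 20 of 49 members were positive, and the members' median was -0.08. Relative to the all-gene median, members lay higher on both scales: 42 of 49 with TMM and 35 of 49 on log2(FPKM + 1). With the length trend of each library removed, 37 of 49 lay above it.

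**Figure D1:**
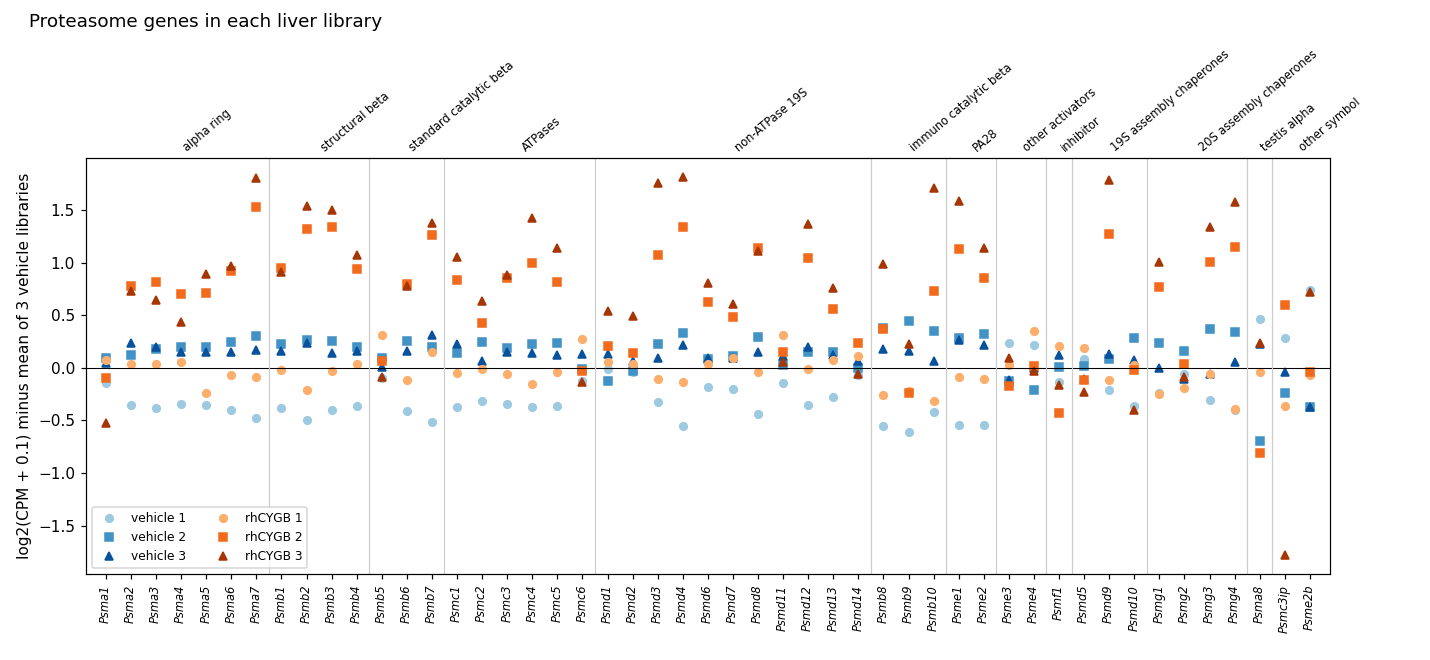
Each point is 1 library's log2(CPM + 0.1) for 1 of the 49 tested proteasome genes, minus the mean of the 3 vehicle libraries; blue symbols are vehicle, orange symbols rhCYGB, and columns are grouped by role. On this scale the second and the third rhCYGB libraries sit above the vehicle points for most constitutive subunits while the first sits among them, and for Psmb5, Psmc6 and Psmd14 all 6 lie close together.

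The alpha subunits form the outer rings of the core and gate the entry of substrates. Their levels, as mean FPKM over the 6 libraries, ran from 55.1 for Psma5 to 173 for Psma7, and 6 of 7 had positive log2 fold changes, and their median was 0.51, or 0.20 once the length trend was taken out. Psma7 (gene 26444, chromosome 2, 180036367 to 180042464 on mm10) was at 79.3, 136 and 124 CPM in vehicle mice against 104, 318 and 386 CPM in rhCYGB mice. Its values in the second and the third rhCYGB libraries exceeded every vehicle mouse, and the first lay between the vehicle values. The log2 fold change was 1.25 (edgeR, SE 0.51, adjusted p = 0.523, unadjusted p = 0.0420). Psma1 (gene 26440, chromosome 7, 114264550 to 114276116), a member of the same ring, was at 84.1, 99.3 and 96.0 CPM in vehicle mice against 97.7, 86.7 and 64.6 CPM in rhCYGB mice. Here the third rhCYGB library was the lowest of the 6, and the log2 fold change was -0.17 (edgeR, SE 0.25, adjusted p = 0.740, unadjusted p = 0.530). Among the others, Psma2, Psma3, Psma4, Psma5 and Psma6 had log2 fold changes from 0.40 to 0.66.

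Among the structural beta subunits, which complete the inner rings without a catalytic site, all 4 had positive log2 fold changes, from 0.66 for Psmb1 to 1.05 for Psmb3, and their median was 0.88, or 0.33 once the length trend was taken out. Psmb3 (gene 26446, chromosome 11, 97703434 to 97713500), the most abundant of them at a mean FPKM of 183, was at 72.5, 114 and 106 CPM in vehicle mice against 94.1, 242 and 272 CPM in rhCYGB mice. Again the first rhCYGB library lay within the vehicle range and the other two above it, for a log2 fold change of 1.05 (edgeR, SE 0.44, adjusted p = 0.523, unadjusted p = 0.0450). Psmb2 was the least abundant, at a mean FPKM of 132. Psmb2 and Psmb4 had log2 fold changes of 1.02 and 0.73.

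At the catalytic positions the standard subunits did not share 1 pattern. Psmb7 (gene 19177, chromosome 2, 38588046 to 38643906), the trypsin-like subunit, was at 79.7, 130.1 and 141 CPM in vehicle mice against 126, 273 and 295 CPM in rhCYGB mice. Its log2 fold change was 0.98 (edgeR, SE 0.41, adjusted p = 0.523, unadjusted p = 0.0465). Psmb6 (gene 19175, chromosome 11, 70525357 to 70527858), the caspase-like subunit, was at 89.5, 142 and 133 CPM in vehicle mice against 109.8, 207 and 205 CPM in rhCYGB mice, with 0.52 as log2 fold change (edgeR, SE 0.35, adjusted p = 0.547). Psmb5 (gene 19173, chromosome 14, 54614120 to 54617995), the chymotrypsin-like subunit, was at 70.8, 80.9 and 76.03 CPM in vehicle mice against 94.1, 79.6 and 71.5 CPM in rhCYGB mice. The highest Psmb5 value was in the first rhCYGB library, where Psmb6 and Psmb7 were at their lowest within the group. Its log2 fold change was 0.11 (edgeR, SE 0.23, adjusted p = 0.810), and it was negative with upper-quartile scaling, on log2(FPKM + 1), with the length trend removed and without the first rhCYGB library.

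The immuno subunits were less abundant than their standard partners in every library and differed among themselves. Psmb10 (gene 19171, chromosome 8, 105935728 to 105938392), which takes the place of Psmb7, was at 29.4, 50.3 and 41.2 CPM in vehicle mice against 31.6, 65.2 and 129 CPM in rhCYGB mice, so that the third rhCYGB library stood well above the rest. Its log2 fold change was 0.90 (edgeR, SE 0.50, adjusted p = 0.523), or 0.60 with the length trend removed and 0.27 without the third rhCYGB library. Psmb8 (gene 16913, chromosome 17, 34198195 to 34201454), which takes the place of Psmb5, was at 22.2, 42.5 and 37.1 CPM in vehicle mice against 27.4, 42.2 and 65.1 CPM in rhCYGB mice. The groups overlapped, with a log2 fold change of 0.40 (edgeR, SE 0.39, adjusted p = 0.625), which was 0.036 without the third rhCYGB library and 0.17 without the first vehicle library. Psmb9 (gene 16912, chromosome 17, 34182099 to 34187330), which takes the place of Psmb6, was at 7.80, 16.3 and 13.3 CPM in vehicle mice against 10.2, 10.1 and 14.0 CPM in rhCYGB mice. All 3 rhCYGB values of Psmb9 lay within the vehicle range, and the log2 fold change was -0.12 (edgeR, SE 0.34, adjusted p = 0.854), or 0.12 without the second vehicle library.

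A ratio of 2 genes within a library does not depend on library scaling, so each immuno gene was set against the standard gene it replaces, in FPKM. Psmb8 made up 18.3%, 27.3% and 25.8% of the summed FPKM of Psmb8 and Psmb5 with vehicle and 17.2%, 27.4% and 39.3% with rhCYGB. The mean log2 ratio was -1.70 ± 0.40 (SD, n = 3) with vehicle and -1.43 ± 0.82 with rhCYGB, a difference of 0.27 (exact two-sided permutation test, p = 0.60), which was -0.14 without the third rhCYGB library. Psmb9 made up 10.1%, 12.9% and 11.4% of its pair with vehicle and 10.7%, 5.89% and 8.06% with rhCYGB. Its mean log2 ratio to Psmb6 was -2.96 ± 0.20 with vehicle and -3.52 ± 0.47 with rhCYGB (n = 3 each), a difference of -0.56 (exact permutation p = 0.20, and -0.33 without the second rhCYGB library), and the first rhCYGB library overlapped the vehicle values. Psmb10 made up 22.0%, 22.8% and 18.2% of its pair with vehicle and 16.1%, 15.4% and 25.0% with rhCYGB, with a difference of -0.22 in log2 ratio to Psmb7 (exact permutation p = 0.50). Leaving out 1 library moved that difference from -0.063, without the second rhCYGB library, to -0.50, without the third. Over the 3 ratios every adjusted p was 0.60, and with 3 libraries a group the smallest p this test can give is 0.10. No ratio separated the groups, and the signs differed between positions. The ratios were not corrected for the length trends of the libraries, and the partners differ in length. With the length trend removed, the log2 fold changes were 0.60 for Psmb10 and 0.53 for Psmb7, the reverse of the sign of their ratio. In that setting Psmb8 and Psmb5 were at 0.12 and -0.26, and Psmb9 and Psmb6 at -0.52 and 0.12.

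**Figure D2:**
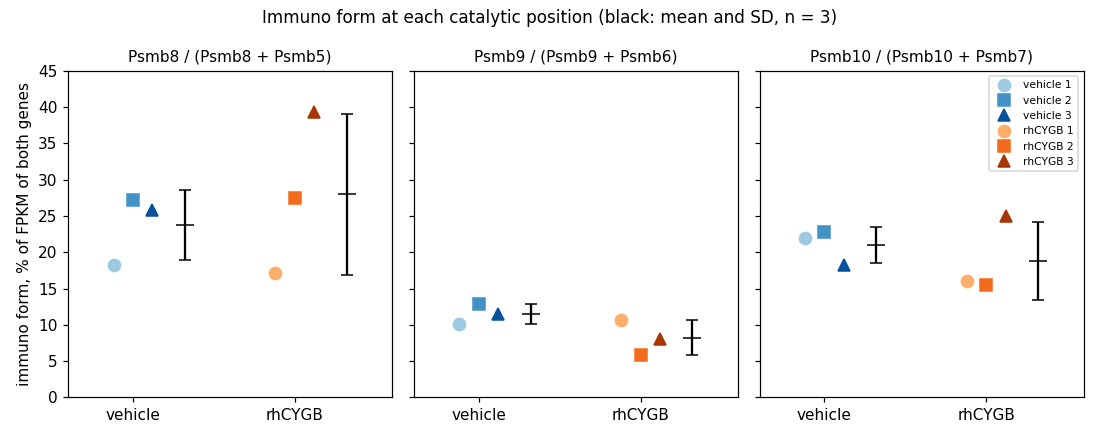
Each panel plots, for 1 catalytic position, the immuno gene's FPKM as a percent of the FPKM of the immuno and standard gene together, by library, with the mean and SD of each group in black (n = 3). The groups overlap in all 3 panels, and the widest spread is that of Psmb8 with rhCYGB, from 17.2% to 39.3%.

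The 3 immuno genes together made up 16.9%, 20.6% and 17.99% of the FPKM of the 6 catalytic genes with vehicle and 14.8%, 14.7% and 22.8% with rhCYGB. Thus the lowest and the highest shares were both in the rhCYGB group. Leukocyte markers, which mark cells rich in immuno subunits, summed to 1320, 1806 and 2227 CPM over 23 measured genes with vehicle and 1125, 1864 and 1378 CPM with rhCYGB. Of these, Cd79a and Ms4a1, which mark B cells, were too low to test, and T cell markers Cd3e, Cd3g, Cd4 and Cd8a lay at or below 1.19 CPM in each library. The highest of them were Lyz2, a lysozyme of macrophages, at 985 ± 352 and 772 ± 315 CPM (SD, n = 3, vehicle first), Cd74, the class II invariant chain, at 185 ± 65 and 167 ± 140 CPM, and Csf1r, a macrophage receptor, at 162 ± 32 and 149 ± 29 CPM. Of the 21 tested, 7 had positive and 14 negative log2 fold changes (median -0.14). Their part in the immuno share was not tested.

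The PA28 cap genes were among the most abundant of the 50. Psme1 (gene 19186, chromosome 14, 55578494 to 55581527), the alpha subunit and the member of highest mean FPKM at 191, was at 92.9, 165 and 163 CPM in vehicle mice against 128, 299 and 409 CPM in rhCYGB mice, with 0.99 as log2 fold change (edgeR, SE 0.47, adjusted p = 0.523). Psme2 (gene 19188, chromosome 14, 55587440 to 55591101), the beta subunit encoded nearby, was at 63.9, 117 and 108 CPM in vehicle mice against 86.8, 169 and 205 CPM in rhCYGB mice, with 0.67 as log2 fold change (edgeR, SE 0.40, adjusted p = 0.528). Both genes followed the constitutive subunits, with the first rhCYGB library inside the vehicle range and the other two above it. The log2 ratio of Psme1 to Psme2 was 0.42, 0.38 and 0.47 in the vehicle mice against 0.43, 0.70 and 0.87 in the rhCYGB mice. Over the 5 immunoproteasome and PA28 genes the median log2 fold change was 0.67, beside 0.53 for the 31 constitutive subunits and -0.06 for all genes tested. With the length trend removed the 3 medians were 0.19, 0.33 and 0.09, and the order of the first pair turned. On log2(FPKM + 1) they were 0.059, -0.057 and -0.34. Without the third rhCYGB library the first pair was 0.27 and 0.44, which also turned the order, and without the first vehicle library the immunoproteasome and PA28 median was 0.45.

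The 19S cap recognises ubiquitin, unfolds substrates with its ATPase ring and feeds them to the core. All 6 ATPase genes had positive log2 fold changes, with a median of 0.63, from 0.04 for Psmc6 to 0.87 for Psmc4. Psmc4, the most abundant at a mean FPKM of 94.0, was at 79.9, 121 and 115 CPM in vehicle mice against 93.02, 208 and 279 CPM in rhCYGB mice. Psmc6 (gene 67089), the least abundant at 42.6, was at 57.97, 62.8 and 69.4 CPM in vehicle mice against 76.5, 61.8 and 57.6 CPM in rhCYGB mice, so the rhCYGB libraries spanned the vehicle ones. Psmc1, Psmc2, Psmc3 and Psmc5 had log2 fold changes from 0.36 to 0.70.

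The non-ATPase subunits of the 19S cap were positive in 11 of 11, and their median was 0.48. Taking out the length trend left 0.49, with 10 of 11 positive. Psmd4, a ubiquitin receptor, was at 68.5, 127 and 117 CPM in vehicle mice against 91.7, 254 and 354 CPM in rhCYGB mice, and its log2 fold change of 1.16 (edgeR, SE 0.51, adjusted p = 0.523, unadjusted p = 0.0567) was the highest of the 11. Psmd3 (gene 22123, chromosome 11, 98682554 to 98695978), a scaffold subunit of the lid, was at 71.4, 105 and 95.2 CPM in vehicle mice against 82.8, 189 and 303 CPM in rhCYGB mice. Its log2 fold change was 1.08 (edgeR, SE 0.47, adjusted p = 0.523, unadjusted p = 0.0533) and 1.15 with the length trend removed. Psmd14, the deubiquitinase that strips ubiquitin chains before degradation, had a log2 fold change of 0.10, and Psmd11, another lid subunit, of 0.17. Psmd8 had the highest mean FPKM of the 11 at 173 and Psmd1, the large base scaffold, the lowest at 34.2, with log2 fold changes of 0.80 and 0.28. The remaining Psmd2, Psmd6, Psmd7, Psmd12 and Psmd13 lay between 0.24 and 0.89. Cap and lid partners of 1 complex thus differed from near 0 to over 1 on the log2 scale, with SEs of 0.22 to 0.51.

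**Figure D3:**
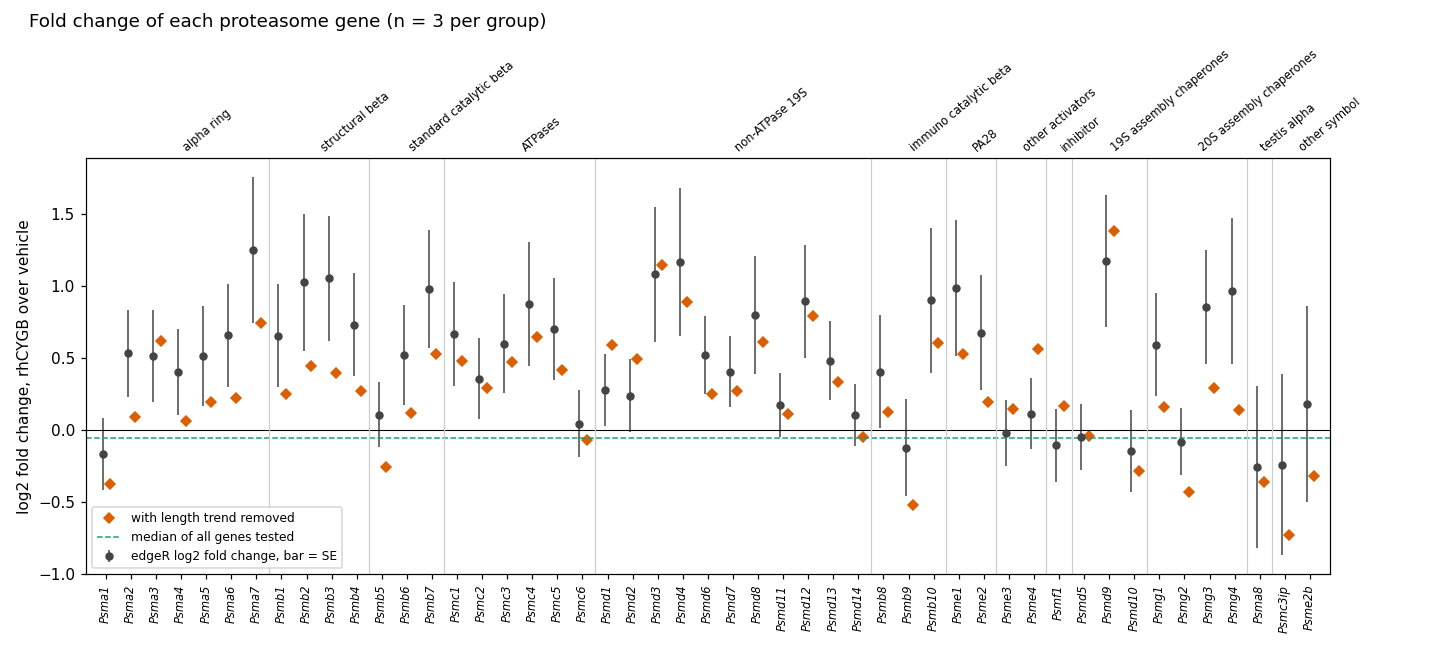
Black points give the edgeR log2 fold change of each tested proteasome gene, rhCYGB over vehicle with n = 3 a group, with bars of 1 SE; orange diamonds give the same with each library's length trend removed, and the dashed line is the all-gene median of -0.06. On this scale most points lie above 0, Psma1 and Psmb5 lie near or below it within otherwise positive classes, and the diamonds of short genes such as Psmg4 lie far below their points.

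Assembly factors split as well. The 19S chaperone Psmd9 (gene 67151, chromosome 5, 123228190 to 123250125) had the smallest p of all members. It was at 21.2, 26.1 and 26.9 CPM in vehicle mice against 22.7, 59.5 and 85.1 CPM in rhCYGB mice, with a log2 fold change of 1.17 (edgeR, SE 0.46, adjusted p = 0.523, unadjusted p = 0.0362), and 1.38 with the length trend removed. The other 19S chaperones, Psmd5 (the most abundant at a mean FPKM of 20.2) and Psmd10 (the least at 7.82), had log2 fold changes of -0.05 and -0.15. The 20S chaperones Psmg1, Psmg3 and Psmg4 had log2 fold changes of 0.59, 0.85 and 0.97 and their partner Psmg2, at the lowest mean FPKM of 12.7, of -0.08. With the length trend removed the first 3 values were 0.16, 0.29 and 0.14. Psmg4, at 525 bases the shortest member, thus lost most of its difference, while Psmd9, at 2591 bases, kept its own.

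The other caps were near 0. Psme3, the nuclear PA28-gamma, and Psme4, which encodes the large activator PA200, had log2 fold changes of -0.02 (SE 0.23) and 0.11 (SE 0.25), at mean FPKM of 18.4 and 14.7. Psma8, the testis form of an alpha subunit, was at 0.774 ± 0.326 CPM with vehicle and 0.650 ± 0.257 CPM with rhCYGB (SD, n = 3). Psmc3ip and Psme2b lay below 3 CPM in each library, with log2 fold changes of -0.24 and 0.18.

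Psmf1, which encodes the proteasome inhibitor PI31, differed between libraries in its transcripts. The gene was at 25.3, 27.9 and 30.1 CPM in vehicle mice against 32.1, 20.6 and 24.7 CPM in rhCYGB mice, with -0.11 as log2 fold change (edgeR, SE 0.26, adjusted p = 0.831). In FPKM the gene was at 10.2, 8.26 and 9.85 in the vehicle mice against 10.5, 4.37 and 4.47 in the rhCYGB mice, and on this scale the second and the third rhCYGB libraries lay below every vehicle value. Of its 2 transcripts, NM_001305244 (3323 bases) made up 1.21%, 1.92% and 2.30% of the Psmf1 FPKM with vehicle and 2.23%, 38.5% and 55.7% with rhCYGB. NM_212446 (3559 bases) was at 10.05, 8.10 and 9.62 FPKM with vehicle and 10.3, 2.68 and 1.98 FPKM with rhCYGB. The first rhCYGB library had the vehicle pattern, and in the other two NM_212446 was below every vehicle value. No test was run on these shares, and the assembler's division of reads between overlapping transcripts is part of them. Among the other members with more than 1 transcript, Psmg4 also differed: NM_001110515 took 28.7%, 31.9% and 33.6% of its FPKM with vehicle and 32.8%, 51.0% and 44.2% with rhCYGB. In Psma3 the transcript NM_001310596 took 27.8% in the third rhCYGB library and 6.04% to 11.2% in the others.

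**Figure D4:**
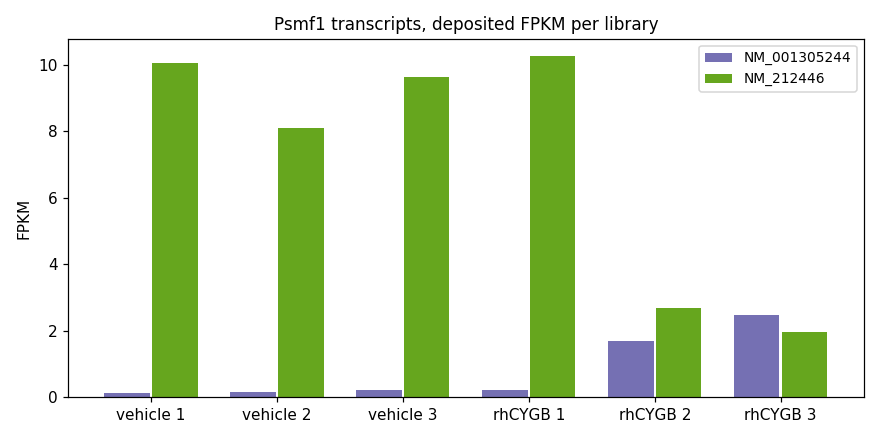
Bars give the deposited FPKM of the 2 Psmf1 transcripts in each of the 6 libraries. NM_212446 stands at 8.10 to 10.3 FPKM in the vehicle libraries and the first rhCYGB library and at 2.68 and 1.98 in the second and the third, where NM_001305244 stands at 1.68 and 2.49.

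The levels of the constitutive subunits, which are built into 1 complex, also differed more from one another in 2 of the rhCYGB libraries. Within a library, the SD of log2 FPKM over the 31 genes was 0.58, 0.74 and 0.69 in the vehicle mice against 0.64, 0.98 and 1.03 in the rhCYGB mice, a measure that library scaling does not alter. Length trends can alter it, and their slopes were most negative in the second and the third rhCYGB libraries (-0.35 and -0.33). The spread over all genes was not set beside it, so a wider spread particular to these subunits is not shown. The highest subunit stood 3.42, 5.79 and 4.44 times above the lowest with vehicle and 4.31, 9.27 and 10.9 times with rhCYGB. In the third rhCYGB library the extremes were Psma7 at 250.5 FPKM and Psmc6 at 22.9 FPKM. The median of the 31 stayed between 78.4 and 92.9 FPKM in all 6 libraries. Across the 49 tested members the log2 fold change correlated with log2 transcript length at Spearman's rho = -0.30 and with GC content at rho = 0.49, and across 14238 genes at -0.41 and 0.25. These describe genes that share the same 6 libraries and are not replicates. The 13 members with log2 fold changes within 0.2 of 0 had a median length of 1541 bases and a median GC content of 46.4%, and the 13 at 0.8 or more had 977 bases and 53.8%. The ranges overlapped: Psmb5, at 871 bases and 56.6% GC, is within the range of both sets.

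**Figure D5:**
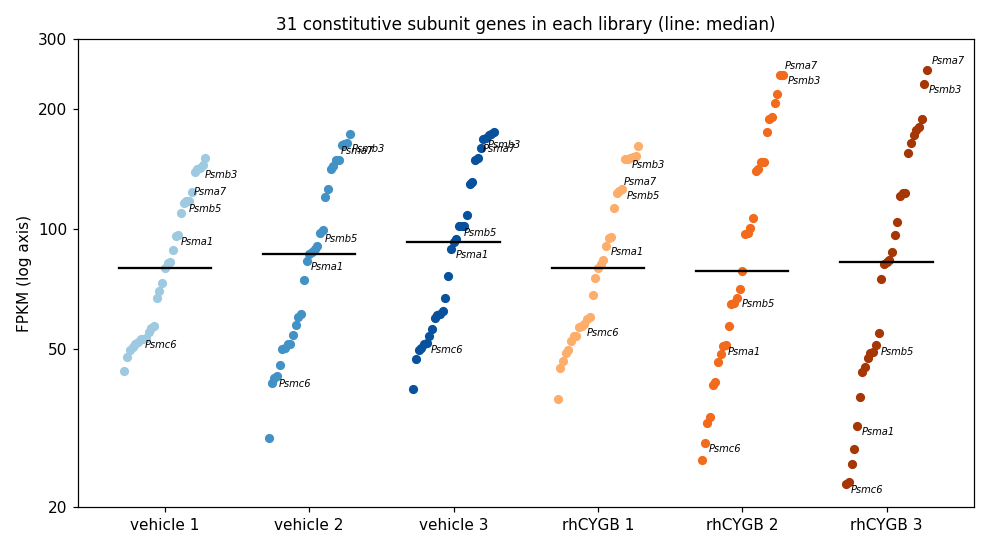
Each point is 1 of the 31 constitutive subunit genes in 1 library, ordered by its deposited FPKM on a log axis, with the library's median as a line and 5 genes named. The columns of the second and the third rhCYGB libraries are taller, with Psma7 and Psmb3 at the top and Psmc6, Psma1 and Psmb5 below the median, while the medians are alike.

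Without the first rhCYGB library, 20 of 49 members passed by edgeR at an adjusted p under 0.05, all higher, where 12.7% of all genes passed higher and 10.5% lower. Leaving out any of the other 5 libraries gave 0 called members. The first rhCYGB library stood out by its values in these same data, so leaving it out gives no independent test. The 20 members included 14 of the 31 constitutive subunits and 2 of the 5 immunoproteasome and PA28 genes, Psmb10 and Psme1 (edgeR adjusted p = 0.0392 and 0.0321). Without that library Psma7 had a log2 fold change of 1.63 (edgeR adjusted p = 0.0213), and Psma1 of -0.30 (adjusted p = 0.355). Limma-voom with sample quality weights, which are estimated from the same data, called 26 of 49 members higher and 0 lower, against 16.1% and 13.9% of all genes. DESeq2 called 0 of the 26 members to which it gave an adjusted p, against 4.17% of 1558 genes. With the first rhCYGB library left out and the length trend removed, edgeR called 10 of 49 members higher and 2 lower, against 15.9% and 6.8% of all genes. The 12 called in either direction stand beside 22.7% of all genes, a share near the background. Psmb5 was then at -0.80 (adjusted p = 0.0457).

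The regulators and partners of the proteasome were split in sign. Of 34 listed symbols 31 were in the table, 17 with positive and 14 with negative log2 fold changes, a median of 0.10, and 0 past the adjusted threshold. The list also holds Adrm1 and Shfm1, genes of 19S subunits that the symbol rule does not reach, with log2 fold changes of 0.85 and 0.93. Nfe2l1, which drives proteasome gene transcription when the proteasome is impaired, was at 70.1, 72.6 and 62.6 CPM in vehicle mice against 76.7, 49.3 and 50.9 CPM in rhCYGB mice (log2 fold change -0.22, edgeR adjusted p = 0.682). Nfe2l2, the oxidative stress factor, was at 120.5, 121.5 and 143 CPM in vehicle mice against 119, 61.05 and 51.3 CPM in rhCYGB mice (log2 fold change -0.73, edgeR adjusted p = 0.523). Its groups did not overlap, though narrowly: the first rhCYGB library was at 119.4 CPM and the first vehicle library at 120.5 CPM. Of the 31 partner genes 1 was lower without overlap, against 7.38% of all genes. Rps27a, a fusion of ubiquitin with a ribosomal protein, was at 303 ± 80 CPM with vehicle and 577 ± 271 CPM with rhCYGB (SD, n = 3), and its log2 fold change was 0.93 (edgeR adjusted p = 0.523). Genes that supply peptides to MHC class I were negative in 15 of 21 tested, with a median of -0.32, or -0.057 with the length trend removed, and 0 past the threshold, while Ifng was too low to test. Of these B2m, the class I light chain, was at 1265 ± 347 and 1666 ± 338 CPM (SD, n = 3, vehicle first), and the chaperones Calr at 976 ± 210 and 975 ± 353 CPM and Pdia3 at 495 ± 67 and 356 ± 57 CPM. Tap1, the peptide transporter gene that neighbours Psmb9 in the class II region, was chosen after its values were seen and stood at 12.4, 18.7 and 16.0 CPM in vehicle mice against 12.3, 6.09 and 16.5 CPM in rhCYGB mice.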

How the data were processed

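Liver mRNA of 6 DDC-fed mice was sequenced from both ends with a stranded mRNA kit, per the labels' protocols. The authors deposited estimated counts and FPKM per gene and per transcript. The submitters' processing notes name HISAT2 2.1.0, StringTie 1.3.4d and FastQC 0.11.7, and the build mm10. The deposited estimated (expected) counts are whole numbers but, coming from an assembler, were not taken as read tallies, so no counting intervals are given. For the strand setting and annotation release: not given in the sources used here. Reads may be divided wrongly between near-identical or overlapping genes.

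The main test was the edgeR 4.0.16 quasi-likelihood F test under R 4.3.3 (filterByExpr, TMM, robust, no covariates, Benjamini-Hochberg over all 14415 genes kept, threshold 0.05), and the code was tested on simulated data. SE was taken as the absolute log2 fold change divided by the root of F. Gene lengths are FPKM-weighted means of transcript lengths in the deposited table. GC content came from GENCODE M21 transcripts. Ratios were tested by exact permutation (scipy 1.17.1). Alternatives were limma 3.58.1, DESeq2 1.42.0, other scaling factors and filters, FPKM with pseudocounts of 1 and 0.1, and leaving out each library. After seeing the data, GC correction, length correction without rhCYGB replicate 1, and the counts of positive members and of unadjusted p under 0.05 were added. Separate animals carry their own labels. Length trends were removed by loess (span 0.5) as offsets. No column was left unused for want of a sample (0).

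The members and lists were chosen with earlier results of these data known. Named in full are the catalytic pairs, PA28 genes and the 5 smallest p-values, and per role the most and least abundant genes. From each other list the 3 of highest CPM are named, with Nfe2l1 and Nfe2l2, except that 2 genes of the partner list are not reported here. Psma1, Psmd4, Psmf1, Psmd14, Psmg4, Tap1, Adrm1 and Shfm1 were detailed after their values were seen.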

Additional observations from a re-analysis of the deposited data

How the results depend on the processing

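No paired analysis was possible because replicate numbers follow the order of deposition. The count of members called, 0 by edgeR, was 26 by limma-voom with quality weights (16.1% of all genes higher and 13.9% lower). It was 12 with the length trend removed and rhCYGB replicate 1 left out (22.7% of all genes). Leaving out 1 library gave from 0 to 20. The 20 were without rhCYGB replicate 1 (12.7% of all genes higher and 10.5% lower), with 0 without each other library. With 1 library left out the difference in log2 ratio ran from -0.80 to -0.33 for Psmb9 to Psmb6 and from -0.50 to -0.063 for Psmb10 to Psmb7, and the immunoproteasome and PA28 median from 0.27 to 0.95. Members with a positive log2 fold change, 40, were 20 with either FPKM pseudocount. Members at an unadjusted p under 0.05, 4, were 0 with upper-quartile factors and both FPKM scales, 9 by DESeq2, 31 by quality-weighted limma-voom, 24 with length removed and rhCYGB replicate 1 left out, and from 0 to 29 with 1 library left out. The share of all genes at that p was taken for the main setting only (6.06% higher and 2.06% lower). The counts in the other settings are therefore not a result about the members. The constitutive median of 0.53 became -0.057 on both FPKM scales and the immunoproteasome and PA28 median of 0.67 became 0.059 and 0.060, where all genes shift too. The Psmb8 to Psmb5 difference of 0.27 ran from -0.14 (without rhCYGB replicate 3) to 0.69 (without rhCYGB replicate 1). Psmb5 turned negative with upper-quartile factors (-0.018), on log2(FPKM + 1) (-0.47) and log2(FPKM + 0.1) (-0.47), with length removed (-0.26), with length and GC removed (-0.32), and with length removed and rhCYGB replicate 1 left out (-0.80), and ran from -0.011 to 0.19 with 1 library left out. Psmb9 ran from -0.37 to 0.12 with 1 library left out and was negative in every other setting. The FPKM scales also turned Psmb6 (-0.083 and -0.084) and Psmb8 (-0.20 and -0.20), as did length and GC removal for Psmb8 (-0.015). The cause was not tested.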
